A study of Mus musculus with 24 samples.

Results

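miR-206 and miR-133b are muscle microRNAs (miRNAs) whose hairpins lie side by side in the mouse genome. Their assays were picked by name (mmu-miR-206 and mmu-miR-133b), 2 of the 584 miRNA assays in the series. The series followed mouse muscle stem cells as they left quiescence, with real-time PCR cards. RNA came from 8-week-old male C57BL/6 mice. The groups were quiescent cells (0 h) and activated cells taken 36, 60 and 72 h after muscle injury, each measured in 3 replicates that the series describes as technical. The labels name no allele, transgene or drug. They do not say how the muscle was injured, how many animals were behind each group or how the cells were isolated.

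Muscle stem cells rest beside the muscle fibre, re-enter the cell cycle after damage and give rise to myoblasts, which fuse into new fibres. miR-206 is a skeletal muscle miRNA that is known to rise as myoblasts differentiate and is reported to repress Pax7, a transcription factor of muscle stem cells. miR-133b belongs to a family known to act on proliferation and differentiation in muscle. Both hairpins lie within Lincmd1, a long noncoding RNA gene active in differentiating myoblasts, where the mature RNA is reported to bind miRNAs.

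The strands below are the 3p strands, the ones long known as miR-206 and miR-133b, shown because the seed (bases 2 to 8, in capitals) is the part that pairs with target mRNAs. Sequences are from RefSeq on GRCm38.p6, and both members were matched.
miR-206-3p: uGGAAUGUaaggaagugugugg
miR-133b-3p: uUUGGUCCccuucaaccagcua
The seeds differ, although the hairpins share a locus. Of the other mature mouse miRNAs in the RefSeq table (1679 entries in all), miR-6349 and miR-6382 have the seed of miR-206, and 0 have that of miR-133b. The table used here does not list the mature strands of miR-1 and miR-133a, which are known to have the seeds of miR-206 and miR-133b.

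The hairpins are shown to place the mature strand, in capitals, within the precursor. Mir206 lies at chr1:20679010-20679082 and Mir133b at chr1:20682769-20682887, both on the plus strand, with 3686 bases between them.
Mir206: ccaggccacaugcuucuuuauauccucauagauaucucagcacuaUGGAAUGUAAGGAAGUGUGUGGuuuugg
Mir133b: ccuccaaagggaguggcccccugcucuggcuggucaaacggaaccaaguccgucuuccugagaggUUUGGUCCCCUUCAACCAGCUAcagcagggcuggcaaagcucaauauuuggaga
Mir206 begins 9128 bases after the start of Lincmd1, and Mir133b ends 71 bases before its end.

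Both members lie within Lincmd1, and the window around its annotated start is shown (250 bases before to 50 after, chr1:20669632-20669931, plus strand). Whether either member is transcribed from this start was not tested. Capitals mark matches to CANNTG, the E-box bound by myogenic factors such as MyoD, which reads the same on both strands.
Lincmd1 start: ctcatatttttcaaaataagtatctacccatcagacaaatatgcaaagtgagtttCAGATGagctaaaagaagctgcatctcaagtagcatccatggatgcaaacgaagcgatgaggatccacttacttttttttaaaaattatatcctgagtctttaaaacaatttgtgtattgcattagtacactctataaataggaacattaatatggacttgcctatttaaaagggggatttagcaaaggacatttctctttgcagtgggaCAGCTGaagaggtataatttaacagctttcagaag
The window holds 2 matches, CAGATG at position -195 and CAGCTG at position 16 from the start. Of the 32851 promoter windows in the table, 72.3% hold at least 1 CANNTG and 16.3% hold CAGCTG, so a match of the general kind is common. The arrays measured no binding here.

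Per array, 181 to 212 miRNA assays were detected on the type A card and 89 to 120 on the type B card. The cards give a threshold cycle (Ct), the PCR cycle at which signal appears, so a lower Ct is more RNA. Ct values carry no read depth, and the number of arrays limits the precision. The level of a member is the mean Ct of the 4 U6 small nuclear RNA spots (MammU6) of its array minus its own Ct, in log2 units. miR-206 was read in 2 spots on each of the 12 type B cards and miR-133b in 1 spot on each of the 12 type A cards, so the members were never measured on the same array. Efficiencies of the assays were not compared, so a level of one against the other does not measure their relative abundance, and only their changes are compared. The spots of miR-206 differed by at most 0.114 cycles on an array.

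miR-206 was already read early in quiescent cells and, relative to U6, changed most between 36 and 60 h. With no normalizer its widest step was the first (1.33 at 36 h against 0 h, and 0.79 at 60 h against 36 h). Its level was -4.06, -3.80 and -3.71 on the 0 h arrays and -3.43, -3.32 and -3.37 on the 36 h arrays. The 60 h arrays gave -1.83, -1.80 and -1.81, and the 72 h arrays -0.99, -1.03 and -1.07. Relative to U6 the group means stand in order of time. With some other normalizers the 36 h mean lay below the 0 h mean, as given below. Its Ct averaged 19.41 ± 0.04, 18.09 ± 0.06, 17.30 ± 0.03 and 16.64 ± 0.04 at 0, 36, 60 and 72 h (SD, n = 3 arrays each). By 72 h it was therefore read only about 1 cycle after U6, at a mean level of -1.03.

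Against 0 h, miR-206 was 4.13-fold higher at 60 h (log2 2.05 ± 0.12, SE; limma adjusted p = 2.12e-08) and 7.09-fold higher at 72 h (2.83 ± 0.12, limma adjusted p = 1.08e-09). A change was called at an adjusted p below 0.05 together with at least a 2-fold difference. At 36 h the log2 change of 0.48 ± 0.12 (limma adjusted p = 0.00272) stayed below that minimum fold. Of all tested assays, 44.1% were called higher at 36 h (56.2% in either direction), 28% at 60 h (64.4%) and 20.9% at 72 h (66.8%). Since the series describes the replicates as technical, these p-values cover spread between arrays and not between mice.

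miR-133b was higher than at 0 h at every later time, with its largest step before 36 h relative to U6. With the global mean of all detected assays as normalizer the step was 3.09 at 60 h against 36 h and 2.67 at 36 h against 0 h (log2). Relative to U6, the level of miR-133b was -12.59, -12.71 and -13.02 on the 0 h arrays and -8.83, -8.84 and -8.76 on the 36 h arrays. The 60 h arrays gave -7.13, -7.23 and -7.13, and the 72 h arrays -6.58, -6.58 and -6.82. Here too the group means stand in order of time, with the widest spread at 0 h (SD 0.22), where the Ct was latest (28.15 ± 0.23, SD, n = 3 arrays). The Ct had reached 21.78 ± 0.07 at 72 h, still well below the detection limit of 35.

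Against 0 h, miR-133b was 15.6-fold higher at 36 h (log2 3.96 ± 0.11, limma adjusted p = 3.20e-10). It was 48.8-fold higher at 60 h (5.61 ± 0.11, limma adjusted p = 1.23e-11). At 72 h it was 69.2-fold higher (6.11 ± 0.11, limma adjusted p = 6.06e-12), the third highest change among the 166 assays tested on its card. Both members are among the assays called higher at 60 and 72 h, and miR-133b alone of the pair at 36 h. The arrays used bulk RNA, where fewer cells of a type and less RNA per cell cannot be told apart.

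**Figure D1:**
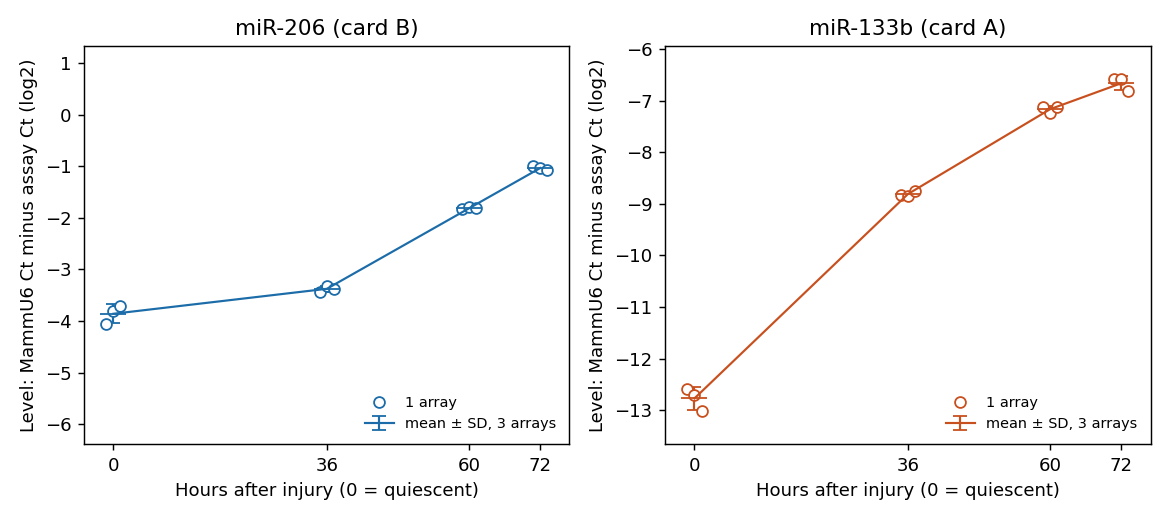
Level of miR-206 (left) and miR-133b (right) against hours after injury, as mean MammU6 Ct minus assay Ct (log2), with both vertical axes spanning the same number of cycles. Circles are single arrays and bars are mean ± SD of 3 arrays. Relative to U6, miR-206 averages -3.37 at 36 h, against -3.86 at 0 h, and miR-133b -8.81, against -12.77. The relative size of the steps changes with the normalizer.

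The later groups were then compared with each other, to see what the members did once the cells were activated. Relative to U6, they rose by near amounts from 36 h on, while the median log2 change of all tested assays was below 0. At 60 h miR-206 was 2.95-fold higher than at 36 h (log2 1.56 ± 0.12, limma adjusted p = 2.92e-07) and miR-133b 3.13-fold higher (1.65 ± 0.11, limma adjusted p = 2.53e-07). In this comparison 5.38% of tested assays were called higher and 54.8% in either direction. With the global mean as normalizer the rises were 2.28 (miR-206) and 3.09 (miR-133b, log2). The medians relative to U6 were -0.74 on card B and -1.27 on card A. Using snoRNA202 in place of U6 shifted every assay up by 1.44 and 1.53, in that order.

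At 72 h against 36 h, miR-206 was 5.07-fold higher (log2 2.34 ± 0.12, limma adjusted p = 5.56e-09) and miR-133b 4.44-fold higher (2.15 ± 0.11, limma adjusted p = 1.79e-08). Of 270 tested assays, 4.07% were called higher and 73.3% in either direction. The median log2 change relative to U6 was -1.09 on the card of miR-206 and -2.30 on that of miR-133b. miR-206 had the highest change of the 89 assays tested on its card, and miR-133b the third highest of 181 on its own. A rank within a card does not depend on the normalizer, which shifts every assay of an array by the same amount.

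Between 60 and 72 h the change was smaller. At 72 h against 60 h the log2 change was 0.78 ± 0.12 for miR-206 (limma adjusted p = 0.000118) and 0.50 ± 0.11 for miR-133b (limma adjusted p = 0.00209). Both lie under the minimum fold. In this comparison 0.755% of assays were called higher and 36.6% in either direction, and the members ranked ninth of 178 (miR-133b) and second of 87 (miR-206) on their cards.

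**Figure D2:**
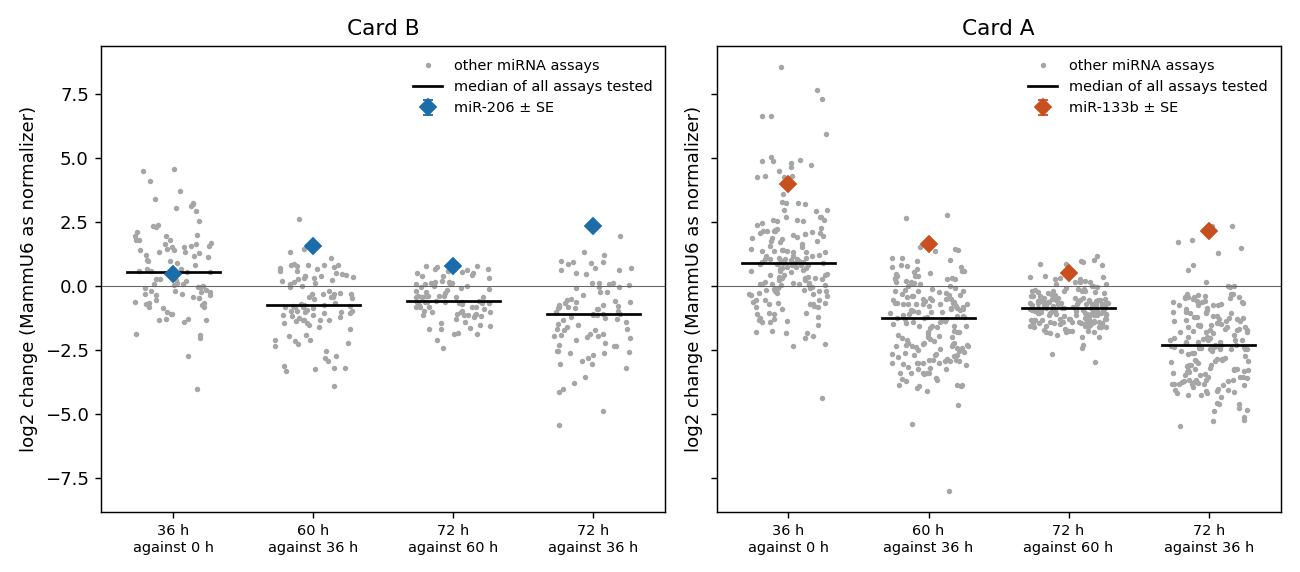
Log2 change of every tested assay on the card of miR-206 (left, card B) and on that of miR-133b (right, card A), for 4 comparisons on the horizontal axis. Grey points are other miRNA assays, black lines the median of the card, and diamonds the member with its SE. At 36 h against 0 h miR-206 (0.48) sits at the median of its card (0.54) and miR-133b (3.96) far above its own (0.91), and in the other comparisons both lie near the top.

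Whether the members changed by the same amount was tested by expressing each assay relative to miR-206, with the cards joined by group and replicate number. Against 0 h, miR-133b rose more than miR-206, by a log2 difference of 3.48 ± 0.17 (SE) at 36 h, 3.56 ± 0.17 at 60 h and 3.29 ± 0.17 at 72 h. The limma adjusted p-values at these times were 1.97e-08, 4.40e-09 and 6.32e-09. The 7 ways of normalizing were 2 forms of U6, 3 other small RNAs, the global mean and none. Over these the 36 h difference ranged from 2.96 to 3.86. Such differences from miR-206 were common, with 52.4%, 82.7% and 91.4% of tested assays called at 36, 60 and 72 h.

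After 36 h no difference between the members was called. The change of miR-133b minus that of miR-206 was 0.08 ± 0.17 at 60 h against 36 h (limma adjusted p = 0.625), where 88.8% of assays were called. It was -0.28 ± 0.17 at 72 h against 60 h (limma adjusted p = 0.133, 75% called) and -0.19 ± 0.17 at 72 h against 36 h (limma adjusted p = 0.274, 97% called). A p above the threshold does not show equal change, and the p-values above are relative to U6. At 72 h against 36 h the difference was 0.46 with snoRNA135 (limma adjusted p = 0.0219) and 0.47 with snoRNA202 (limma adjusted p = 0.00358). It was 0.48 with Y1 (limma adjusted p = 0.00394), 0.99 with the global mean (1.80e-06) and 0.46 with no normalizer (0.00253). At 60 h against 36 h it ranged from -0.15 to 0.82 over the normalizers. All of these lie under the minimum fold.

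The same difference can be followed by replicate number, where its change between groups is of interest and not its size. The level of miR-133b minus that of miR-206 was -8.53, -8.91 and -9.30 at 0 h. The later arrays gave -5.39, -5.53 and -5.38 (36 h), -5.30, -5.43 and -5.32 (60 h), and -5.59, -5.55 and -5.74 (72 h). Relative to U6, the highest 0 h value stands 2.78 below the lowest of the later ones, which lie close together. Over the normalizers the change of this difference at 72 h against 36 h ranged from -0.19 to 0.99. An exact permutation test of the between-group sum of squares over the 4 groups gave p = 0.000325, against a smallest possible 6.49e-05 over 15400 assignments. This p-value is for levels relative to U6 and for arrays of different cards joined by replicate number alone. It covers spread between technical replicates and not between mice.

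The other measured muscle miRNAs place the pair among its relatives. The list held 8 assays besides the members. The 4 for miRNAs of mature fibres and heart, miR-208, miR-208b, miR-486 and miR-499 (miRNAs encoded in myosin heavy chain genes and the ankyrin gene Ank1), were detected on 0 arrays. Of the other 4, those called higher against 0 h numbered 3, 4 and 4 at 36, 60 and 72 h. Their median changes were 2.06, 1.94 and 2.68 (log2). Over all tested assays 44.1%, 28% and 20.9% were called higher at these times. With the global mean as normalizer, 1 was called at 36 h in place of 3. Relative to U6, the medians over all tested assays were 0.82, -0.37 and -0.77.

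miR-133a, the relative of miR-133b from other loci, rose less. Its level averaged -10.15 ± 0.07, -8.23 ± 0.03, -7.96 ± 0.13 and -6.95 ± 0.07 at the 4 times in order (SD, n = 3 arrays each). Against 0 h it was 3.79-fold, 4.56-fold and 9.17-fold higher at 36, 60 and 72 h. Both assays are on the same card, so the normalizer drops out of their difference, and this test was added after the data were seen. miR-133b rose more than miR-133a by 2.04 ± 0.10 at 36 h (log2, SE, limma adjusted p = 1.54e-08). It did so by 3.42 ± 0.10 at 60 h (limma adjusted p = 7.90e-11) and by 2.92 ± 0.10 at 72 h (limma adjusted p = 2.09e-10). On that scale 67%, 85.6% and 90.9% of card A assays were called. The difference was 1.38 ± 0.10 at 60 h against 36 h (limma adjusted p = 3.26e-07, 66.7% called). Under the minimum fold were 0.88 ± 0.10 at 72 h against 36 h (limma adjusted p = 9.51e-06, 96.7% called) and -0.51 ± 0.10 at 72 h against 60 h (limma adjusted p = 0.000731, 88.1% called). The mature strands of miR-133a and miR-133b are known to be nearly identical, and how much each assay reads of the other was not tested.

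miR-1, the relative of miR-206, followed another course. The mouse assay of miR-1 had mean levels of -15.42 ± 0.50, -12.45 ± 0.09, -13.72 ± 0.35 and -12.86 ± 0.07 at 0, 36, 60 and 72 h (SD, n = 3 arrays each). It was 7.85-fold higher at 36 h than at 0 h, and at 60 h 2.41-fold lower than at 36 h (log2 -1.27 ± 0.24, limma adjusted p = 0.000675). That later change was 0.26 with snoRNA202 and 0.18 with the global mean as normalizer. The rat assay of miR-1 averaged -12.90 ± 0.10, -10.71 ± 0.08, -10.42 ± 0.11 and -10.09 ± 0.05, and its log2 change of 0.28 ± 0.08 at 60 h against 36 h was not called. How much either assay of miR-1 reads of miR-206 was not tested. Relative to miR-206, both assays were higher at 36 h, by 2.49 ± 0.28 (mouse, limma adjusted p = 1.41e-05) and 1.71 ± 0.10 (rat, limma adjusted p = 7.51e-08). At 60 and 72 h, with U6 as normalizer, neither was called against miR-206. The differences were -0.35 ± 0.28 and -0.27 ± 0.28 on the mouse assay and 0.43 ± 0.10 and -0.02 ± 0.10 on the rat assay. The assays of miR-1 and miR-206 are on different cards, so the normalizer does not drop out of these differences. At 36 h, therefore, miR-206 stood behind miR-1, miR-133a and miR-133b in its change from 0 h, and at 72 h its change (2.83) lay between those of miR-1 (2.56 and 2.81) and miR-133a (3.20). The 72 h order holds for U6 alone: with snoRNA135, snoRNA202, Y1, the global mean or no normalizer miR-206 was the lowest of these. With Y1 its 72 h change was 2.10, against 2.88 and 3.14 for the mouse and rat assays of miR-1.

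**Figure D3:**
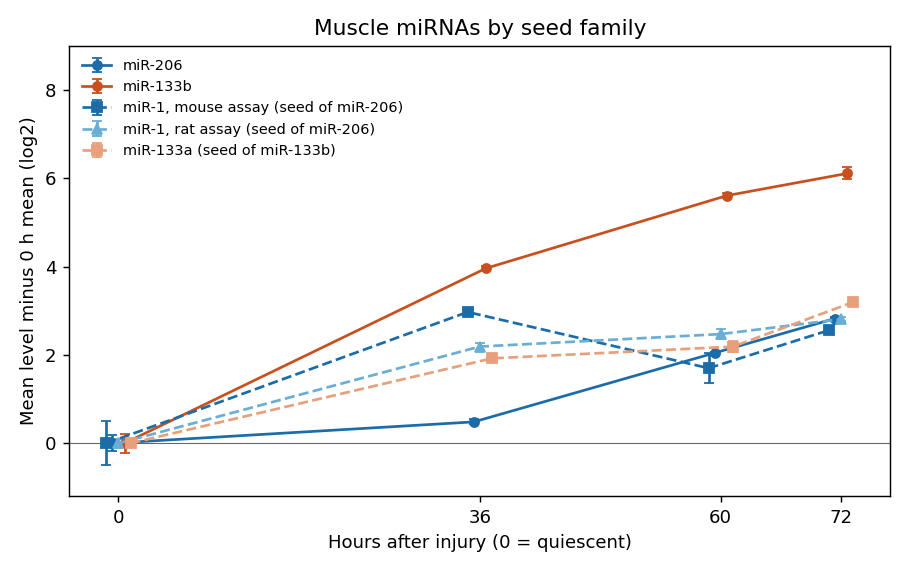
Mean level minus the 0 h mean (log2) against hours after injury, for miR-206, miR-133b and the muscle miRNAs with the same seeds. Bars are the SD of 3 arrays, and points are shifted sideways for legibility. At 36 h miR-206 lies lowest (0.48) and miR-133b highest (3.96), and at 72 h miR-206 (2.83) lies among miR-1 and miR-133a while miR-133b is at 6.11. All values are relative to U6, and with the 5 other settings miR-206 is the lowest of the lines at 72 h.

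Patterns over all 12 arrays of a card were compared by the root mean square difference in the change from the 0 h mean, a measure in which the normalizer drops out between assays of 1 card. It is a description without a test, and all assays of a card share its arrays. Among 69 other assays detected on each type B card, miR-149 was nearest to miR-206 (0.56, log2), followed by miR-805 (0.84) and miR-378 (1.00). miR-149 changed by 0.90, 1.71 and 1.83 at 36, 60 and 72 h against 0 h, and by Pearson's r over the 12 arrays (0.94) it was again nearest. Among 151 assays on the type A cards, the nearest to miR-133b were miR-19a (1.12), miR-20a (1.19) and miR-20b (1.21). These belong to the miR-17-92 cluster and a paralog, known for promoting proliferation. They lay higher than miR-133b at 36 h (4.87, 4.79 and 4.88) and lower at 72 h (4.11, 3.89 and 3.96). By Pearson's r the nearest was the rat assay of miR-1 (0.98), which has the shape but not the size. Pearson's r was taken on levels relative to U6, so the normalizer does not drop out of it. Between miR-133b and miR-206, on different cards, the difference with U6 was 2.99.

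The sign of the change of miR-206 at 36 h depended on the normalizer. With Y1 RNA as normalizer its log2 change against 0 h was -0.55, and with the global mean it was -0.29. It was 1.59, a called rise, with snoRNA202, and 1.33 with no normalizer at all. U6 itself was read at a Ct of 14.71 ± 0.04 at 36 h, against 15.56 ± 0.20 at 0 h, on the cards of miR-206 (SD, n = 3 arrays each). Against the U6 setting, the normalizers shifted all assays of card B by -1.03 to 1.11 at 36 h. All other member changes against 0 h were called with all 7 ways of normalizing. Over these, miR-206 ranged from 1.79 to 4.59 at 60 h and from 2.10 to 5.44 at 72 h. miR-133b ranged from 2.67 to 4.84 at 36 h, from 5.50 to 8.01 at 60 h and from 6.11 to 9.16 at 72 h. The 72 h against 36 h rise was called with all 7 too, at 1.45 to 3.85 for miR-206 and 1.92 to 4.47 for miR-133b.

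**Figure D4:**
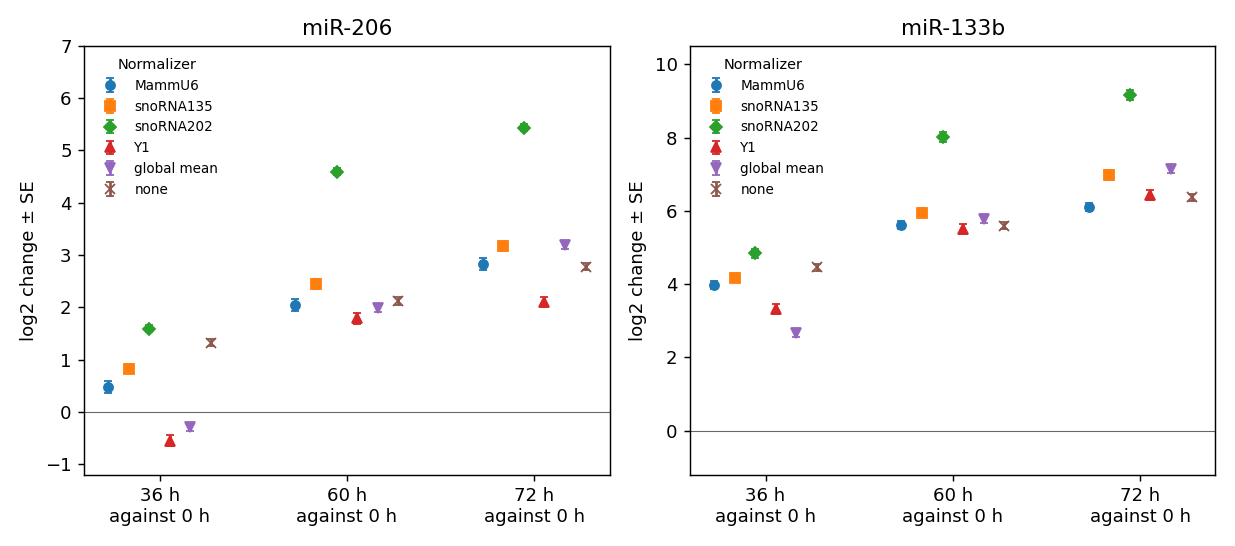
Log2 change of miR-206 (left) and miR-133b (right) at 36, 60 and 72 h against 0 h, with 5 normalizers and with none (symbols). Bars are SE. For miR-206 the 36 h values straddle 0 (-0.55 to 1.59), and all other values are above it.

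The authors' deposited table gives a different 36 h value for miR-206. Its average fold change at day 1.5 was 6.65 and 6.74 in the 2 spots, against 1.40 here, 4.75 and 4.82 times as much. The deposited Ct values of the members match the single-array files within 0.00005. The constant that the authors subtracted from them was 16.97 on the type B card at 36 h, whereas the mean U6 Ct of those arrays was 14.71, a gap of 2.26 cycles. In the 5 other combinations of card and time that were checked, the constant lay within 0.001 of the mean U6 Ct. At day 2.5 the deposited table gave 4.10 and 4.16 for miR-206, against 4.13 here. For miR-133b it gave 15.7 at day 1.5 and 49.2 at day 2.5, against 15.6 and 48.8 here. In the deposited table miR-206 is thus higher at day 1.5 than at day 2.5, while the Ct values relative to U6 run the other way.

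miRNAs known from other cell types moved over the same times, and their part in the members' changes was not tested. Of 6 leukocyte assays 5 were tested at 36 h against 0 h and 4 were higher, while at 72 h against 36 h all 5 tested were lower. Of all assays 44.1% were called higher at 36 h, and at 72 h against 36 h 73.3% were called in either direction and 4.07% higher. The summed leukocyte level per 1000 units of U6 ran from 76.1 to 79.4 at 36 h, against 24.0 to 24.7 at 0 h, and from 5.86 to 6.41 at 72 h. Assay by assay, 2 of 5 were higher and 1 was lower at 72 h than at 0 h, with a median log2 change of 0.22. The lower one was miR-150, named after its values were seen, at a mean level of -9.74 at 72 h, against -5.53 at 0 h. Both endothelial assays (miR-126-3p and miR-126-5p) were higher at 36 h than at 0 h, with sums of 203.8 to 206.2 against 43.7 to 46.2, and lower at 72 h than at 0 h, with 11.7 to 11.9. The mesenchymal and smooth muscle sum was 147.7 to 153.6 at 36 h, against 106.6 to 115.7 at 0 h, and 8.83 to 9.30 at 72 h. Of its 4 assays 3 were higher at 36 h than at 0 h and 3 were lower at 72 h, with 1 not called each time. Its miR-145, with the highest level at 0 h, averaged -3.41 then and -3.73 at 36 h. All these sums add assays whose efficiencies were not compared. The erythroid miR-451 was detected on 3 arrays at 36 h and 3 at 60 h, on 1 at 72 h and on 0 at 0 h. The epithelial miR-200c and miR-205 and the neuronal miR-9 were each detected on 3 arrays at 36 h and on 0 at 0 h. Their mean levels at 36 h were low (-15.17, -17.27 and -16.38). The others on these lists did not follow. The epithelial miR-141, miR-200a, miR-200b and miR-429 and the neuronal miR-124 were detected on 0 arrays. The epithelial miR-203 was detected on 3 arrays at each time, and its 36 h change against 0 h (log2 0.44) was not called. The liver miR-122 was detected on 0 arrays, as were the 4 assays of mature fibre and heart. The muscle miR-1 and miR-133a, which are not on that list, were detected on 3 arrays at each time. Whether the samples held RNA of muscle fibres was not tested. The stem cell locus of miR-489 and miR-653 was lower than at 0 h for 2 of 3 assays at 36 h and for 3 of 3 at 60 h. Over all tested assays, 56.2%, 64.4% and 66.8% were called in either direction at 36, 60 and 72 h against 0 h. Those called higher were 44.1%, 28% and 20.9%.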

How the data were processed

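Each array file holds deposited Ct values, an inverse log2 scale, per the file headers. Per the labels, RNA was extracted with Trizol and run for 40 cycles on TaqMan rodent cards. The labels do not name the Ct software. The card was read from the assay names. The authors' deposited tables add dCt (log2) and average fold changes (a linear ratio). Their last time is day 3.5 where the labels give 72 h, so it was left out of the comparison, as were 50 per-sample columns. The day 3.5 fold changes were 69.4 for miR-133b and 7.11 and 7.07 for miR-206. At 72 h the values here were 69.2 and 7.09. Whether both times name the same arrays was not tested.

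Spots of an assay were averaged when all had a Ct below 35. Assays with at least 2 detected replicates in both groups went into limma (version 3.58.1, R 4.3.3). One model per card took in 12 arrays, and Benjamini-Hochberg adjustment covered both cards. The code was tested on simulated data. The plan expressed miR-133b relative to miR-206 on the same array. They proved to be on different cards, so cards were joined by group and replicate number. Alternatives covered the normalizer, detection limit, undetected values, filter, arrays in the fit, prior, replicate block and each replicate left out.

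The members and lists were chosen with earlier results of these data known. Named were the members, muscle assays sharing a seed, other muscle and marker assays as counts, and the 3 assays nearest in pattern, with the 1 of highest Pearson r. The liver, epithelial (1 of 7 assays tested, lower at 60 and 72 h against 0 h, and 2 others detected at 36 h but not at 0 h), neuronal (0 of 2 tested against 0 h, 1 detected at 36 h but not at 0 h) and other lists describe cells the samples could hold.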

Additional observations from a re-analysis of the deposited data

How the results depend on the processing

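Of 456 recomputed log2 results on the members, 222 left the estimate as it was (such as U6 as a group mean, the detection limits, and any normalizer for miR-133b minus miR-133a), so that direction could not change. Of the 234 that moved it, 214 kept direction and call. The 20 that did not all changed the normalizer. At 36 h against 0 h, miR-206 was at 1.59 with snoRNA202 and 1.33 with no normalizer, both called, and reversed to -0.55 with Y1 and -0.29 with the global mean. At 60 h against 36 h it was 0.79, no longer called, with no normalizer. At 72 h against 60 h, miR-133b was called with snoRNA135 (1.03), snoRNA202 (1.15) and the global mean (1.38), and miR-206 with the global mean (1.21). The change of miR-133b minus that of miR-206, for which normalizers were added after the data were seen, reversed at 72 h against 60 h (0.31 with snoRNA135, 0.30 with snoRNA202, 0.62 with Y1, 0.17 with the global mean and 0.12 with none). It also reversed at 72 h against 36 h (0.46, 0.47, 0.48, 0.99 and 0.46 in that order) and at 60 h against 36 h with Y1 (-0.15). The cause was not tested.

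The assays called at 72 h against 60 h numbered 97, and 59 with snoRNA135, 46 with snoRNA202 and 42 with the global mean. Leaving out 1 replicate moved miR-206 between 0.38 and 0.56 at 36 h against 0 h and miR-133b between 3.84 and 4.05. The muscle assays called at 72 h against 60 h, 1 of 4, then numbered 0 (without the second 60 h or the first 72 h replicate) to 2 (without the third 60 h replicate), and with other normalizers 2 or 3. With the replicate block the adjusted p of miR-206 at 36 h against 0 h was 0.00459, and no call on the members changed. Same-numbered arrays did not deviate together (median r 0.01 on card A and -0.02 on card B). By Pearson's r of levels relative to U6, 0 of the 3 assays nearest to miR-133b stayed so, and 3 of 3 for miR-206.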
